A study of Mus musculus with 2 samples.

Results

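CTCF binding was examined around 8 genes of the mouse pluripotency network: Pou5f1, Nanog, Klf4, Esrrb, Prdm14, Zfp42, Tet1 and Lefty1. Their loci were taken as all CTCF peaks whose centre lay within 150 kb of a fixed mm9 position for each gene, a rule that uses no measured value. This gave 155 of the 54151 peaks called in embryonic stem cells (ESC) and 107 of the 51421 peaks called in neural precursor cells (NPC). The ESC were E14Tg2A cells (IB10), an established mouse line grown in serum-containing medium with leukemia inhibitory factor, which keeps such cells undifferentiated. The NPC were derived from E14 ESC and grown on gelatin in N2-supplemented medium with basic FGF and EGF. Both samples were precipitated with the same anti-CTCF antibody, and no genotype change or drug treatment is given for either. There was a single library for either cell type, so a test between them was not possible, p-values are not given, and every contrast below is between 2 libraries. The lists hold no expression values, so the identity of the cells could not be checked against marker genes, and the depth behind each list is unknown.

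The factors encoded by Pou5f1 (OCT4) and Nanog are central to the transcription network that keeps embryonic stem cells undifferentiated, and Klf4, Esrrb, Prdm14 and Zfp42 (REX1) encode further DNA-binding factors active in that state. Tet1 encodes a dioxygenase that oxidises 5-methylcytosine, and Lefty1 encodes a secreted inhibitor of Nodal signalling. CTCF is a zinc-finger protein that binds a long, oriented DNA motif, and pairs of its sites anchor many chromatin loops, which can bring enhancers to promoters or separate them. Most of these genes are switched off when ESC turn into neural cells; gene activity itself was not measured here.

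The fixed positions were chr6:122657507 for Nanog, chr17:35642977 for Pou5f1, chr4:55545000 for Klf4, chr12:87780000 for Esrrb, chr1:13110000 for Prdm14, chr8:44385000 for Zfp42, chr10:62310000 for Tet1 and chr1:182865200 for Lefty1. Those of Nanog and Pou5f1 are given to the base. The others are rounded, and how far they lie from a gene start on mm9 was not checked. Distances below run from these positions to the peak centre, with negative values toward lower coordinates, and no peak was assigned to an exon, intron or promoter because no mm9 gene models were used. No peak of either list covered the Nanog or Pou5f1 position. The ESC peak nearest to the Nanog position began 1403 bp beyond it, and the NPC peak nearest to it began 1369 bp beyond it. For Pou5f1 the nearest peaks began 2087 bp beyond the position in ESC and 3380 bp beyond it in NPC. The 250 bases before the annotated starts of these 2 genes, the best known of the set, are shown as examples of promoter sequence at the loci. They are from RefSeq on GRCm38.p6 and were not placed on mm9, and capitals mark CCCTC, the short core of the CTCF motif, on either strand (GAGGG on the other).
Nanog, plus strand, GRCm38.p6 chr6:122707239-122707488: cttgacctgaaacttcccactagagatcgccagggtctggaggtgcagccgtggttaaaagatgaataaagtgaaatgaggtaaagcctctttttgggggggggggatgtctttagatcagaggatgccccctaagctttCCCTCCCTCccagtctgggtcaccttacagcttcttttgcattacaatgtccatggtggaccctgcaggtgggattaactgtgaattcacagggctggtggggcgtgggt
Pou5f1, plus strand, GRCm38.p6 chr17:35505782-35506031: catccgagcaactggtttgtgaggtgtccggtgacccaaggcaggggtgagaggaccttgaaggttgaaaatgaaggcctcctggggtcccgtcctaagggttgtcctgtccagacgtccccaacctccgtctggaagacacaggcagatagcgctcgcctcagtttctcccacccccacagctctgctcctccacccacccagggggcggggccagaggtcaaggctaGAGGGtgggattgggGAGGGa
The Nanog stretch held 2 matches, which overlap by a base, both on the plus strand, and the Pou5f1 stretch held 2 on the minus strand. Each gene has a second annotated start, not printed, whose stretch held 3 matches for Nanog and 0 for Pou5f1. CCCTC occurred in 60.5% of the 32851 RefSeq promoter stretches of this length. Promoter stretches were found for 6 of the 8 genes, 9 stretches in all, and 7 of these held the core. A match describes the letters and is no evidence of a bound site, and an absent match concerns these 250 bases alone.

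CTCF peaks at the 8 loci were more often without a counterpart in NPC than peaks of the ESC list as a whole. Of the 155 ESC peaks, 63 (40.6%, exact Clopper-Pearson 95% interval 32.8 to 48.8) overlapped no NPC peak by even 1 bp and are called ESC-only; the share over the whole ESC list was 26.0%. Of the 107 NPC peaks, 13 (12.1%, 6.63 to 19.9) overlapped no ESC peak and are called NPC-only, against 21.4% of the whole NPC list. Such intervals cover counting error alone, as if each peak were independent. The ESC share and its interval lay above the whole-list value with the other 3 overlap rules too (50% reciprocal overlap, centres within 100 bp, peaks within 1 kb), whereas the NPC share did not stand apart when the overlap rule was stricter. With 50% reciprocal overlap it was 26.2% (18.1 to 35.6) against 28.1% for the whole NPC list, and with centres within 100 bp it was 21.5% (14.1 to 30.5) against 26.6%. NPC peaks were narrower than ESC peaks, with medians of 440 and 557 bp at the 8 loci, and 433 and 573 bp over the lists.

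**Figure D1:**
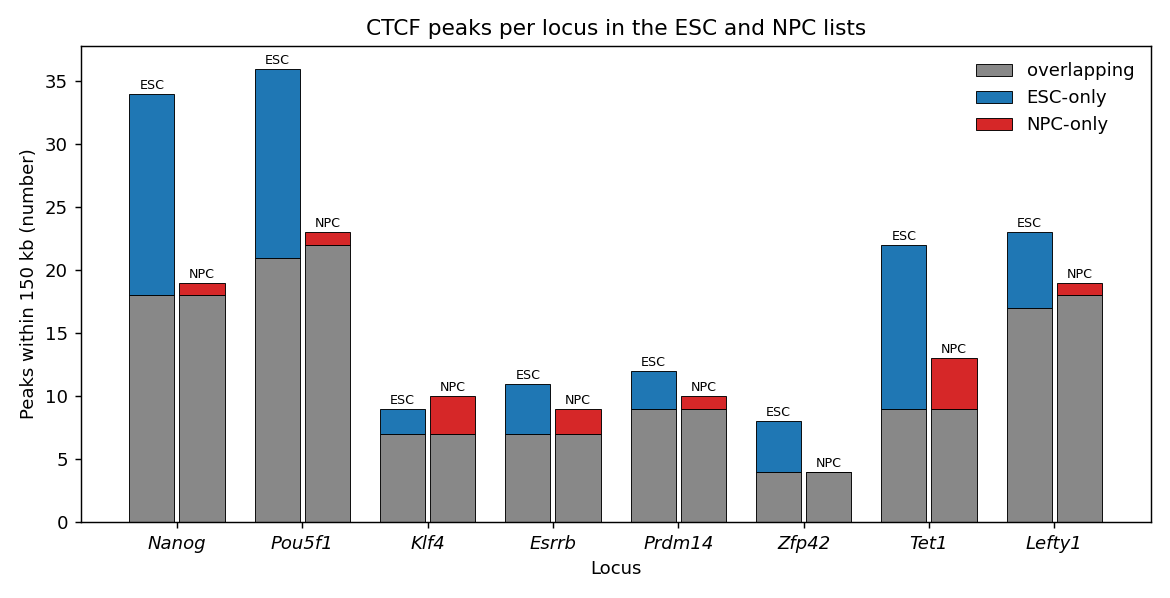
Number of CTCF peaks (vertical axis) within 150 kb of each gene (horizontal axis), with an ESC and an NPC bar per locus; grey parts overlap a peak of the other list, blue parts are ESC-only and red parts NPC-only. Nanog and Pou5f1 had the tallest bars, and Klf4 was the locus with more NPC than ESC peaks (10 against 9).

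Peak numbers differed widely among the genes. Pou5f1 had 36 ESC and 23 NPC peaks, Nanog 34 and 19, Lefty1 23 and 19, and Tet1 22 and 13. Prdm14 had 12 and 10, Esrrb 11 and 9, Klf4 9 and 10, and Zfp42 8 and 4. So 7 of the 8 loci had more ESC than NPC peaks, and the ESC list is itself the longer. Among the 7778 tiled 300 kb windows of the genome that held a peak, the median was 5 ESC and 5 NPC peaks. Fewer ESC peaks than at Pou5f1 were found in 99.9% of these windows, fewer than at Lefty1 in 97.3%, fewer than at Tet1 in 96.8% and fewer than at Zfp42 in 64.0%. Pou5f1, Nanog, Lefty1 and Tet1 thus lay in windows denser in ESC peaks than nearly all others, and the other 4 genes in windows above the median that were not extreme. NPC peaks were dense there too, with fewer in 98.2% of windows than at Pou5f1, in 95.4% than at Nanog or Lefty1 and in 85.7% than at Tet1.

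Nanog, Pou5f1 and Tet1 held 44 of the 63 ESC-only peaks and 92 of the 155 ESC peaks; at the other 5 loci 19 of 63 ESC peaks were ESC-only (30.2%, 19.2 to 43.0), and this interval includes the 26.0% of the list. ESC-only shares were 59.1% at Tet1 (13 of 22, 36.4 to 79.3), 47.1% at Nanog (16 of 34, 29.8 to 64.9) and 41.7% at Pou5f1 (15 of 36, 25.5 to 59.2). With peaks within 1 kb counted as shared, the Pou5f1 count was 9 of 36, close to the 24.0% of the whole list under that rule. Zfp42 had 4 of 8 (50.0%, 15.7 to 84.3) and Esrrb 4 of 11 (36.4%, 10.9 to 69.2). Lefty1 (6 of 23, 26.1%), Prdm14 (3 of 12) and Klf4 (2 of 9, 22.2%) were at or near the share of the whole list. With shared sites defined by centres within 100 bp, the Lefty1 count was 10 of 23 (43.5%), against 30.3% over the list. The interval excluded the whole-list value at 2 loci, Nanog and Tet1. Among the 2061 tiled 300 kb windows with at least 10 ESC peaks, an ESC-only share as large as at Tet1 was found in 2.28%, as large as at Nanog in 9.41% and as large as at Pou5f1 in 15.7%. For NPC-only peaks the interval excluded the whole-list value at none of the 8 loci, with counts of 4 at Tet1, 3 at Klf4, 2 at Esrrb, 1 each at Nanog, Pou5f1, Prdm14 and Lefty1, and 0 of 4 at Zfp42 (upper limit 60.2%). On the remainder of chromosomes 10, 6 and 17, which carry Tet1, Nanog and Pou5f1, the ESC-only shares were 26.3%, 24.8% and 27.2%.

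**Figure D2:**
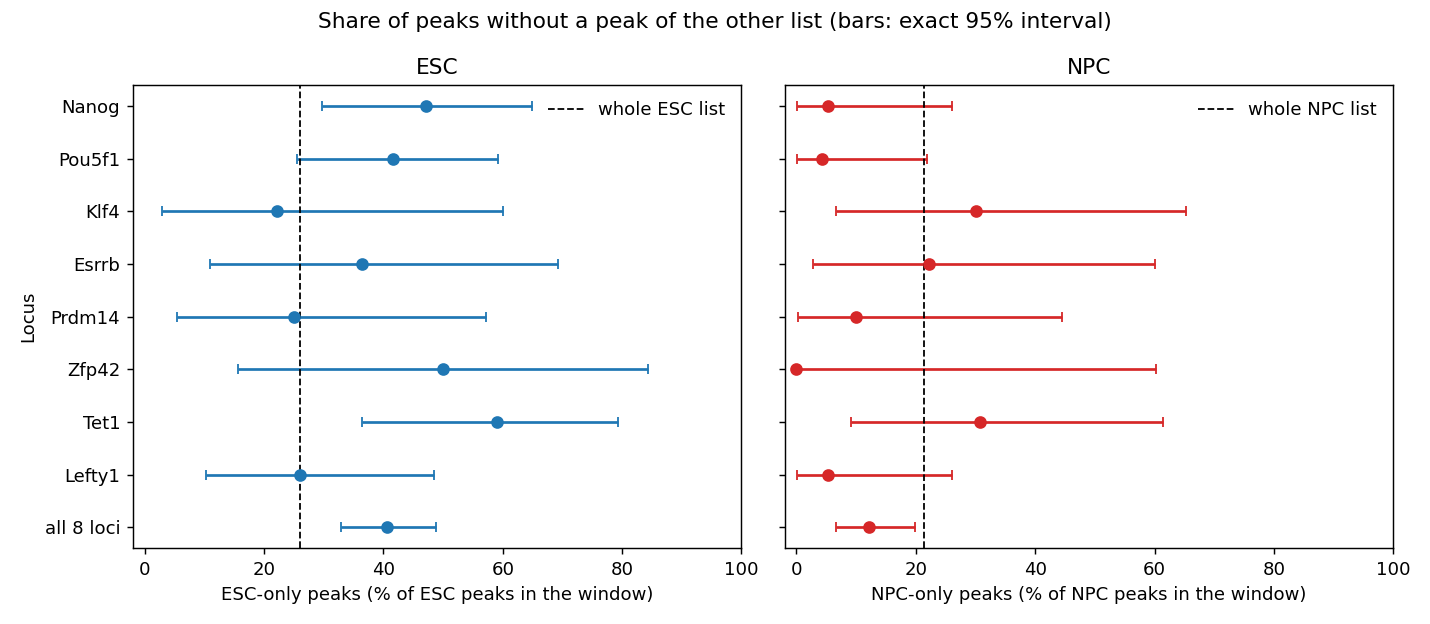
Share of peaks without a peak of the other list at each locus (points, percent of the peaks in the window) with exact 95% intervals (bars); ESC peaks on the left and NPC peaks on the right, with dashed lines at the shares of the whole lists, 26.0% and 21.4%. The ESC intervals of Nanog and Tet1 lie above the line, and every NPC interval of a single locus crosses it.

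Most ESC-only peaks at the loci were weak. Scores are the authors' values for each peak, with no definition in the files, and were read only as ranks within a list; the percentile of a peak is the share of its list scoring below it. ESC-only peaks at the loci had a median percentile of 19.4, against 74.0 for the overlapping ESC peaks there, and over the whole list these medians were 20.8 and 62.1. Among the 84 ESC peaks at or below the median score of the list, 56 (66.7%, 55.5 to 76.6) were ESC-only, against 47.1% over the list. Among the 71 above the median, 7 (9.86%, 4.06 to 19.3) were, against 4.96%, a value inside the interval. In the NPC list, 11 of 55 peaks at or below the median (20.0%, 10.4 to 33.0) were NPC-only, against 37.7%, and 2 of 52 above it (3.85%, 0.469 to 13.2), against 5.01%. ESC-only peaks at the loci lay nearer to an NPC peak than those of the whole list, with a median gap of 7265 bp against 10482 bp. Of the 63, 11 (17.5%) were within 1 kb, against 7.85%, and 18 (28.6%) were over 10 kb away, against 51.2%. Where peaks are dense such gaps are short, and the part that density plays in these numbers was not tested.

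Sites called in both cell types ranked lower in NPC more often than pairs of the whole lists did. At the loci 90 ESC peaks matched 1 NPC peak 1-to-1, and 68 of these pairs (75.6%) had a lower percentile in NPC, against 52.9% of all 39595 pairs. The median change from ESC to NPC was -9.77 percentile points (95% interval from order statistics -14.15 to -5.56), against -1.18 over all pairs. A fall of at least 25 points was seen at 24 pairs (26.7%), against 16.4% of all pairs, and a rise of that size at 5 (5.56%), against 11.9%. A site near the top of a list can fall further in percentile than it can rise, and the paired sites at the loci ranked high in ESC, with a median percentile of 72.7 against 61.8 over all pairs. Among pairs in the upper 25% of the ESC list, a split chosen after seeing the data, 40 of 42 were lower in NPC (68.1% over the lists), with a median change of -11.02 points (-19.23 to -6.04) against -5.83. In that group 10 pairs (23.8%) fell by at least 25 points, near the 19.3% over the lists.

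**Figure D3:**
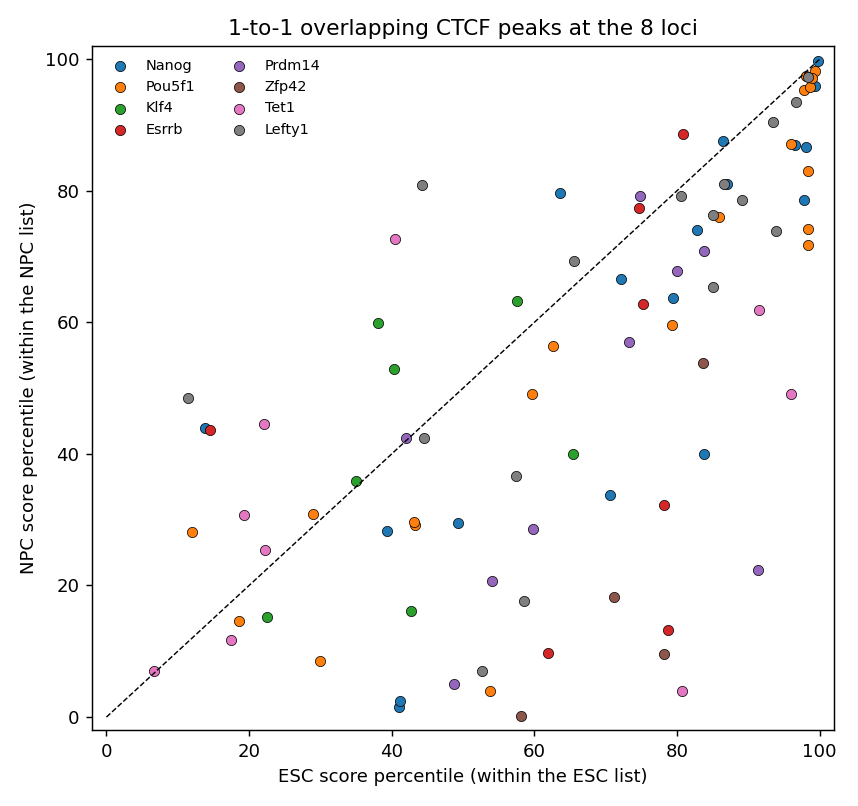
Within-list score percentile in NPC (vertical axis) against that in ESC (horizontal axis) for the 90 sites matched 1-to-1 at the loci, coloured by gene; the dashed line marks equal percentiles. Of the 90 points, 68 lie below the line, among them all 4 of Zfp42.

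Peak by peak, the 8 loci differed in where the strong sites lay and in which sites changed rank, as the map of peaks by distance shows. At each locus the nearest peak, the highest-scoring peak, every cell-type-only peak above the median of its list and the pairs with the largest change of percentile are described.

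**Figure D4:**
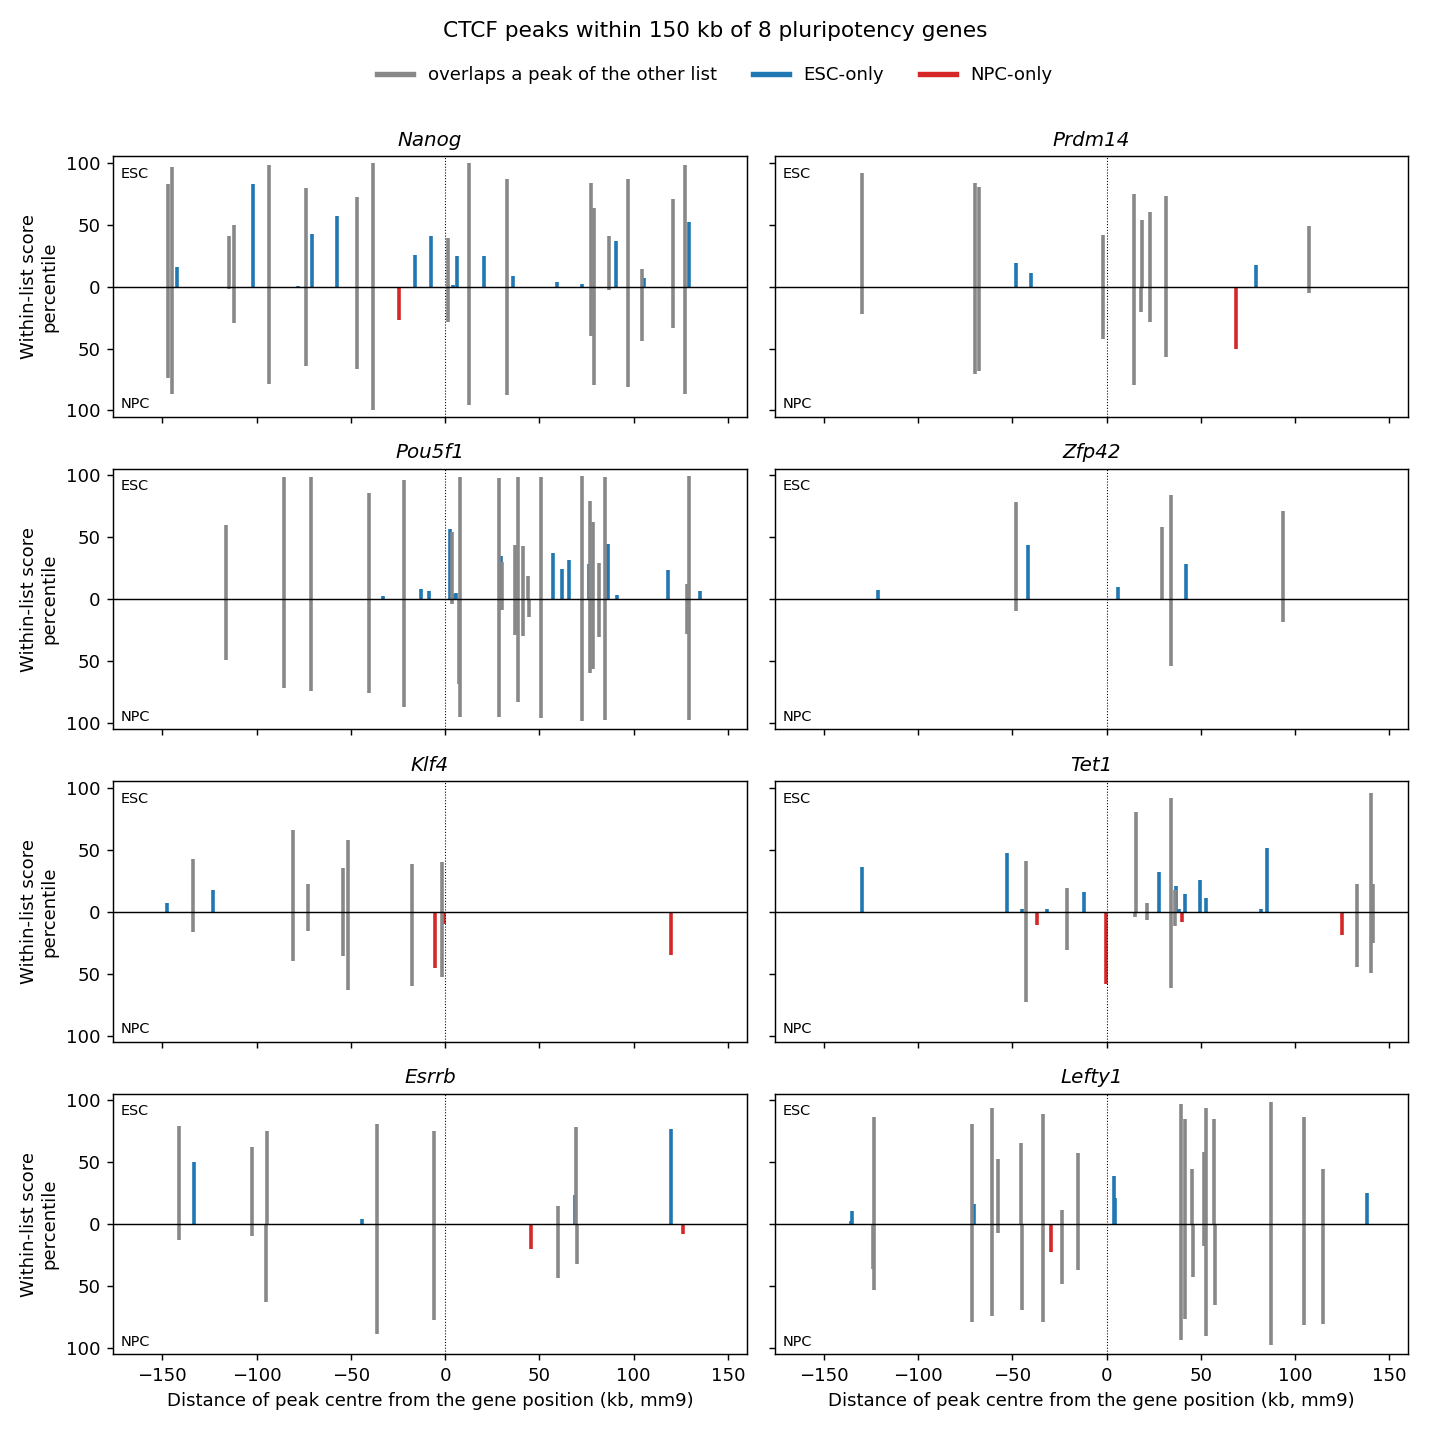
CTCF peaks within 150 kb of each gene; the horizontal axis is the distance of the peak centre from the gene position (kb, mm9), and bar height is the within-list score percentile, upward for ESC and downward for NPC. Grey bars overlap a peak of the other list, blue bars are ESC-only and red bars NPC-only; Pou5f1 has 28 of its 36 ESC peaks on the higher-coordinate side, and Klf4 has 0 of its 9 there.

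Pou5f1 lies beside the class I genes of the major histocompatibility complex; in RefSeq order its protein-coding neighbours are H2-Q10 at lower and Tcf19 and Cchcr1 at higher coordinates. The window was rich in strong sites, with 10 of 36 ESC peaks and 6 of 23 NPC peaks in the upper 5% of their lists. The highest was the same site in both, chr17:35714867-35716020 at 72.5 kb, with an ESC score of 2749 (percentile 99.3) and an NPC score of 2231 (98.1). The ESC peak nearest to the Pou5f1 position, chr17:35645064-35645740 at 2.43 kb, was ESC-only with a score of 628 (56.3), and the closest NPC peak was 617 bp away. That NPC peak belonged to the adjoining pair at 3.49 kb, which showed the largest fall of the locus, from a score of 584 (53.8) in ESC to 110.0 (4.02) in NPC. Within 10 kb of the Pou5f1 position 4 of 6 ESC peaks were ESC-only, and none of the 3 NPC peaks was NPC-only. Over all 8 loci 10 of 16 ESC peaks and 3 of 10 NPC peaks within that distance lacked a counterpart, 2 of the 3 NPC-only peaks being at Klf4. The shares over the whole lists were 26.0% and 21.4%, and this distance was chosen after the values were seen. Most of these 16 ESC peaks were at or below the median score of their list, and of such peaks 47.1% were ESC-only over the whole list. At 7.75 kb a wide ESC peak, chr17:35650060-35651400 with a score of 2484 (98.8), spanned 2 NPC peaks scoring 692 (68.3) and 1741 (95.03). The largest rise of the locus was 16.2 percentile points at 128.2 kb, where a weak ESC peak with a score of 145 (12.0) met an NPC peak with 200.4 (28.2). Of 20 pairs, 18 were lower in NPC.

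Nanog is flanked in RefSeq order by Dppa3 and Gdf3, pluripotency-associated genes themselves, at lower coordinates, and by the glucose transporter gene Slc2a3 at higher coordinates. Its strongest site, chr6:122619103-122620007 at -38.0 kb, scored 3100 in both lists, a value at which scores pile up (173 ESC and 208 NPC peaks). At 12.7 kb on the other side, chr6:122669775-122670610 scored 2787 (99.3) in ESC and 1829 (95.9) in NPC. Between these 2 strong sites, which are 50.6 kb apart and enclose the Nanog position, lay 5 other ESC peaks, 4 of them ESC-only, and 2 NPC peaks, 1 of them NPC-only. Between the nearest flanking pairs in the upper 25% of both lists, ESC-only peaks numbered 5 of 7 at Pou5f1, 2 of 4 at Lefty1, 3 of 7 at Esrrb, 5 of 20 at Klf4, 7 of 26 at Prdm14, 11 of 19 at Zfp42 and 19 of 38 at Tet1, over spans from 50.2 kb at Pou5f1 to 2609 kb at Zfp42. Here and at Nanog the spans end at the first such pair, so by construction no other pair of this kind lies between. This leaves sites matched 1-to-1 and strong in both lists out of the counts, which are therefore not comparable with the 26.0% of the whole ESC list. A strong ESC peak that spans 2 NPC peaks is not such a pair, and the peak of this kind at 7.75 kb from Pou5f1 is among the 7 there. The peak nearest to the Nanog position was at 1.74 kb, with a score of 365 (39.4) in ESC and 200.9 (28.3) in NPC. Of the ESC-only peaks, 3 scored above the list median: chr6:122555067-122556039 at -102.0 kb with 1233 (82.4), chr6:122599867-122600388 at -57.4 kb with 641 (56.9) and chr6:122786884-122787497 at 129.7 kb with 549 (51.8). The first of these was the highest-ranking ESC-only peak of the 8 loci, and the nearest NPC peak lay 7986 bp from it. Among pairs, the largest fall was at 77.6 kb, from 1278 (83.8) to 282 (40.0), and the largest rise at 104.5 kb, from 153 (13.9) to 319 (44.0).

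Klf4, which encodes a Krüppel-like factor, was the locus with more NPC than ESC peaks, by 10 against 9. Of its 7 pairs, 4 ranked higher in NPC, as did 5 of 9 at Tet1, while 52.9% of all 39595 pairs ranked lower. The Klf4 ESC peaks all lay at lower coordinates, between -147.4 and -1.69 kb, and none reached the upper 5% of the list. The highest was chr4:55463863-55464379 at -80.9 kb, with a score of 814 (65.5) in ESC and 282 (40.0) in NPC. In NPC the highest was at -51.4 kb, with a score of 589 (63.2). Near the Klf4 position, the pair at -1.69 kb ranked higher in NPC, with a score of 376 (40.3) in ESC and 423 (52.9) in NPC, and the pair at -17.3 kb went from 349 (38.1) to 531 (59.9), the largest rise at this locus. NPC-only peaks flanked the first of these pairs, at chr4:55539354-55539667 with 334 (45.5) and at chr4:55544128-55544553 with 127 (10.1), 447 bp from the Klf4 position. The third NPC-only peak, at 119.9 kb with 244 (35.1), was the one peak of either list on the higher-coordinate side. The largest fall was at -133.7 kb, from 407 (42.7) to 146 (16.1), and the median change over the 7 pairs was 0.89 points.

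Esrrb, which encodes an orphan nuclear receptor, had 8 of its 11 ESC peaks above the list median. The site nearest to its position, chr12:87774129-87774628 at -5.62 kb, kept a high rank, with a score of 1024 (74.7) in ESC and 915 (77.3) in NPC. The highest at the Esrrb locus was the pair at -36.1 kb in both lists, with 1186 (80.8) in ESC and 1322 (88.6) in NPC. Farther out several sites dropped: the pair at -141.3 kb went from 1128 (78.8) to 136 (13.2), the largest fall there, and an ESC-only peak stood at chr12:87899611-87900384, 120.0 kb from the position, with 1071 (76.5). Another ESC-only peak at -133.0 kb scored 521 (50.2), just above the list median. The largest rise was at 60.1 kb, from 157 (14.6) to 314 (43.6).

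Prdm14, which encodes a PR-domain factor needed in germ cells and naive stem cells, showed its largest contrast at the edge of the window. There the highest ESC peak, chr1:12980018-12980754 at -129.6 kb, scored 1581 (91.4), and its NPC partner scored 171 (22.4). Close to the Prdm14 position, the pair whose ESC peak ended 1767 bp before it had nearly equal ranks, with 398 (42.0) in ESC and 304 (42.4) in NPC. The pair at 14.6 kb was the highest NPC peak of the locus and its largest rise, from 1025 (74.8) to 975 (79.2), a gain of 4.48 points. An NPC-only peak just above the NPC median, chr1:13178326-13178562 at 68.4 kb, scored 392 (50.4) and lay 10704 bp from the nearest ESC peak. All 3 ESC-only peaks there were below the ESC median, and 7 of 9 pairs were lower in NPC.

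Zfp42, whose product REX1 is a widely used marker of undifferentiated cells, had the fewest peaks, and its paired sites all ranked lower in NPC. The 4 pairs each fell by at least 29.8 percentile points, and its median change was -55.42, against -1.18 over all pairs of the lists. These 4 pairs ranked high in ESC, with a median percentile of 74.7 against 61.8 over all pairs. Over the lists, pairs in the upper 25% of the ESC list had a median change of -5.83 points. No interval is given for so few pairs. At -47.9 kb the score was 1112 (78.2) in ESC and 124 (9.59) in NPC, the largest fall at Zfp42. The site at 29.2 kb had 663 (58.1) and 100.5 (0.186), the latter almost at the lowest score of the NPC list. At 34.1 kb, the highest peak in both lists had 1272 (83.6) and 436 (53.8), and at 93.6 kb the scores were 942 (71.2) and 155 (18.3). The ESC peak nearest to the position, at 6.19 kb, was ESC-only with a low score of 135 (9.56), and the nearest NPC peak began 29076 bp away. The Zfp42 ESC-only peaks, 4 in number, were all below the list median.

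Tet1 had the largest share of ESC-only peaks, and most of these were weak, with a median percentile of 15.7; 1 of the 13 scored above the ESC median, at 85.3 kb with 541 (51.3). The fixed position itself was covered by an NPC-only peak, chr10:62309690-62310106, with a score of 503 (58.3), the highest-ranking NPC-only peak of the 8 loci, and the nearest ESC peak, an ESC-only peak at -12.2 kb with 163 (15.7), was 11649 bp away. The Tet1 position is rounded, so this peak is not assigned to a part of the gene. At higher coordinates strong ESC sites fell in rank: the pair at 15.4 kb went from 1184 (80.8) to 110.0 (4.02), the largest fall at the 8 loci, the pair at 34.2 kb from 1585 (91.5) to 562 (61.8), and the highest ESC peak of the locus, at 140.2 kb, from 1903 (95.9) to 375 (49.2). The pair at -43.0 kb moved the other way, from 377 (40.4) to 796 (72.7), and was the highest NPC peak there. Over the 9 pairs 4 were lower and 5 higher in NPC, with a median change of 0.35.

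Lefty1, which lies near its paralog Lefty2 in RefSeq order, had no ESC-only peak among its 14 ESC peaks above the list median. Over the whole list 4.96% of such peaks were ESC-only, and Klf4, Prdm14 and Zfp42 had none either. The highest peak was the same in both lists, chr1:182952120-182952996 at 87.4 kb, with 2329 (98.4) in ESC and 2041 (97.3) in NPC. Strong pairs stood on both sides of the Lefty1 position, at -33.8 kb with 1474 (89.1) and 957 (78.6), and at 39.6 kb with 1987 (96.7) and 1620 (93.5). Between them the ESC peaks nearest to the Lefty1 position, at 3.90 kb with 355 (38.7) and at 4.51 kb with 194 (21.1), were both ESC-only, and the nearest NPC peak ended 14958 bp away. The 1 NPC-only peak, at -29.5 kb with 174 (22.7), was weak as well. The largest fall was at -57.4 kb, from 565 (52.7) to 117 (7.04), and the largest rise at -23.8 kb, from 143 (11.5) to 367 (48.5). The ESC peak at -123.6 kb, with 1365 (86.4), spanned 2 NPC peaks with 252 (36.4) and 424 (53.0).

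By distance from the fixed positions, the ESC-only count was 29 of 69 (42.0%, 30.2 to 54.5) within 50 kb, 19 of 50 (38.0%, 24.7 to 52.8) from 50 to 100 kb and 15 of 36 (41.7%, 25.5 to 59.2) from 100 to 150 kb, with intervals that overlap widely. NPC-only peaks numbered 8 of 49, 1 of 32 and 4 of 26 in the same bands. At the edge of the windows, the outermost ESC peak inside was 147.4 kb from Klf4, with a score of 123 (6.85), and the first outside was 150.1 kb from Zfp42, with 103 (0.955). The corresponding NPC peaks were 146.8 kb from Nanog, with 829 (74.1), and 150.4 kb from Nanog, with 894 (76.5). Of 22 further pluripotency genes listed for comparison, Dppa3, Gdf3 and Lefty2 neighbour Nanog or Lefty1; the others were not analysed here, because no mm9 gene positions were used.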

How the data were processed

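CTCF chromatin immunoprecipitation followed by SOLiD sequencing gave 1 peak list per cell type, ESC and NPC. MACS was used to call peaks, separately per library, per the file headers; the submitters' processing notes name mm9 as the build. Version and threshold of MACS, the aligner and the control are not given in the sources used. Each deposited peak has a score, whose definition is not stated, so scores were used only as ranks within a list. The lists hold no read counts. The members and lists were chosen with earlier results of these data known.

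Peaks with a centre within 150 kb of the 8 fixed positions were taken. Peaks of the lists with 1 bp or more in common counted as shared; this step was tested on simulated peaks and gave the same counts as bedtools 2.31.1 (40062 ESC and 40437 NPC peaks). Shares have exact Clopper-Pearson 95% intervals and medians order-statistic intervals. Peaks named were the nearest and the highest-scoring peak per locus and list, cell-type-only peaks above the list median, and the pairs with the largest change; the other peaks named, among them those that flank a gene or span 2 peaks, were chosen after their values were seen. Tiled windows were 300 kb, and peaks at or below and above the list median were counted separately. Gene order came from RefSeq on GRCm38.p6, used for names only. The promoter search had been foreseen for starts under a peak; none of those given to the base was, and it was run as a description. Python 3.11.15, numpy 2.4.6, pandas 2.3.3, scipy 1.17.1 and matplotlib 3.10.9 were used.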

Additional observations from a re-analysis of the deposited data

How the results depend on the processing

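Depth is unknown for both lists, so a site without an overlap may have fallen under the calling threshold of the other library. No paired analysis was possible because each cell type has 1 library, which also means that none could be omitted. The ESC-only share of 40.6% was 49.0% with 50% reciprocal overlap (31.7% over the whole ESC list) and 9.86% in the upper 50% of the list by score (4.96%). The NPC-only share of 12.1% was 26.2% with 50% reciprocal overlap (28.1% over the whole NPC list), 21.5% with centres within 100 bp (26.6%) and 3.85% in the upper 50% (5.01%). With peaks within 1 kb and with windows of 75 or 300 kb to each side, both shares stayed inside their main intervals, as did the ESC share with centres within 100 bp. Leaving out 1 locus at a time gave 37.6% to 43.2% for ESC and 9.57% to 14.3% for NPC. The median change of percentile of -9.77 ranged from -11.02 to -6.21 over its 4 alternatives, 1 of them (the upper 25% of the ESC list) chosen after seeing the data. Counts of cell-type-only peaks per locus moved by over 1.5 times in 5 of 16 cases with reciprocal overlap, 4 with centres, 1 within 1 kb, 14 in the upper 50%, and 6 each with windows of 75 and 300 kb. Counts of all peaks per locus did so in 15 of 16 cases in the upper 50%, 7 with 75 kb and 8 with 300 kb. Score limits and window widths change how many peaks are counted; for the overlap rules the cause was not tested.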
